A study of Mus musculus with 12 samples.

Results

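The fatty acid desaturases and elongases examined here were 10 genes, Scd1, Scd2, Fads1, Fads2, Fads3, Elovl1, Elovl2, Elovl3, Elovl5 and Elovl6, which were chosen by symbol from the 21705 genes of the deposited liver table. All 10 were in the table, and all 10 had a mean of at least 10 in the deposited unit and were tested among 12486 genes. The livers came from C57BL/6J female mice aged 10 to 12 weeks. Saline was injected into the tail vein of 6 mice, and LNA29, a mixture of locked nucleic acids against miR-29a (20 mg/kg) and against miR-29b and miR-29c (20 mg/kg), was injected into 6 mice. Livers were taken on day 7 after an 18 h fast, so all 12 livers were fasted, and both groups were of the same strain, sex and age. No library from mice given an unrelated locked nucleic acid was analysed here, so an effect of any injected oligonucleotide and an effect of miR-29 inhibition cannot be told apart. The miR-29 miRNAs themselves were not measured by the polyadenylated RNA libraries.

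The enzymes work on fatty acids bound to coenzyme A in the membrane of the endoplasmic reticulum. The stearoyl-CoA desaturases (Scd genes) place the first double bond into saturated chains, which yields palmitoleic and oleic acid. The front-end desaturases (Fads genes) add double bonds to dietary polyunsaturated acids and yield arachidonic, eicosapentaenoic and docosahexaenoic acid together with the elongases. Each Elovl gene encodes the condensing enzyme of an elongation cycle, and the members differ in the chains they prefer. Liver makes and exports much of the monounsaturated and polyunsaturated fatty acid of the body, and Scd1 and Elovl6 are known targets of the lipogenic factors SREBP-1c and ChREBP. Fasting is known to lower the lipogenic members.

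The miRNAs that LNA29 binds share the seed, bases 2 to 8, shown in capitals because a matching stretch in an mRNA is the unit of miRNA recognition.
mmu-miR-29a-3p: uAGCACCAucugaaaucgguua
mmu-miR-29b-3p: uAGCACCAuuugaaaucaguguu
mmu-miR-29c-3p: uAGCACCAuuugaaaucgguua
These mature sequences are from RefSeq (GRCm38.p6). MiR-29a lies at chr6:31062673-31062694 on the minus strand and miR-29c at chr1:195037600-195037621 on the plus strand. MiR-29b has 2 copies, at chr6:31063025-31063047 on the minus strand and chr1:195037091-195037113 on the plus strand. The complement of the seed, TGGTGCT on the transcript strand, was searched in the 3′ UTR of the longest protein-coding transcript of each gene in GENCODE M21 (GRCm38). It was present in 1 of the 10 members, Scd1, at position 346 of a 3′ UTR of 3464 bases.
Scd1 3′ UTR: tagggtgagcaTGGTGCTcagtccctgtt
This stretch is chr19:44397556-44397584 on the minus strand of GRCm38, and the capitals mark the match at chr19:44397567-44397573. The match was followed by C, so the longer form TGGTGCTA was not there. Among 11069 tested genes with an annotated 3′ UTR, 15.4% held TGGTGCT and 3.30% held TGGTGCTA, and the median 3′ UTR was 1119 bases long. The 3′ UTRs of the other members measured between 834 bases (Elovl1) and 5005 bases (Elovl6) and did not hold TGGTGCT. A shorter match, without its first T, was in the 3′ UTRs of Scd2, Fads2, Fads3, Elovl2 and Elovl5. The share of all genes with that shorter match is not given here. A match is a description of the sequence and not a measured site.

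Each deposited value is the estimated read number of a gene, scaled so that the upper quartile over the detected genes of a library is about 1000, with an undetected gene listed at 1. Saline livers had 8217212 to 19062479 reads on genes and LNA29 livers 7696095 to 15079236, and 1 read corresponded to a value of 9.80 to 24.4. The hepatocyte marker Alb took between 43.6% and 46.9% of the reads in 11 livers and 35.7% in saline 49. That liver also differed from its group along transcript length, since its deviations had a Spearman correlation of 0.51 with transcript length over 11111 genes, which are not independent replicates. In the other livers this correlation was between -0.35 (saline 47) and 0.29 (LNA29 44).

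Scd1 was 2.96-fold lower in LNA29 livers by the ratio of group means. Elovl6 was 1.57-fold and Fads1 1.29-fold lower by the same ratio without passing the tests, and Fads2, Elovl1 and Elovl2 were closer to the saline level. Scd2 and Fads3 had few reads and no firm difference, Elovl3 rested on 1 liver, and Elovl5 was 1.26 times the saline level. Of the 10 members, 9 had a lower and 1 had a higher mean log2 value in LNA29 livers. Among all 12486 genes tested, 61.4% had a lower mean in LNA29 livers. Scd1 was the 1 member with a two-sided exact permutation p under 0.05, where 8.5% of all genes tested had such a p (6.34% lower and 2.15% higher in LNA29 livers). None of the 10 had an adjusted p under 0.05 in limma with Benjamini-Hochberg adjustment over all genes, a call made for 0.16% of the genes tested (0.0881% lower and 0.0721% higher). An unadjusted limma p under 0.05 was found for 2 of the 10, Scd1 and Fads1, both lower, and for 7.91% of all genes (5.97% lower). For no member did the groups fail to overlap, and only 0.985% of all genes had all LNA29 livers on the same side of all saline livers (0.713% below and 0.272% above). The median log2 fold change was -0.34 over the 10 members and -0.09 over all genes tested, and they were -0.29 and -0.05 when all livers were given the same median. Because whole liver was sequenced, fewer cells of a type and less RNA per cell cannot be told apart.

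**Figure D1:**
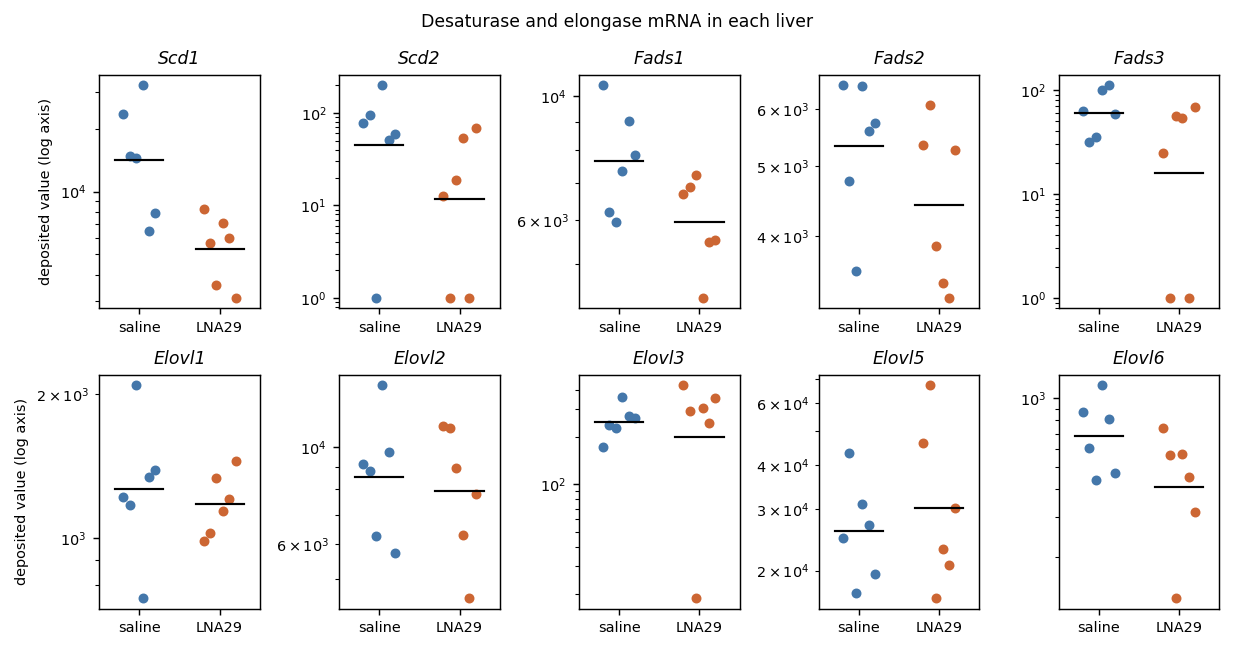
Deposited value of each member in each of 6 saline and 6 LNA29 livers, on a log axis, with a line at the mean of the log2 values. For Scd1, 4 of the 6 LNA29 livers lie below the lowest saline liver, and values at 1 (Scd2 and Fads3) are livers without reads.

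Scd1, the main stearoyl-CoA desaturase of the liver, was between 6444 and 32399 in saline livers, with a median of 14648, and 3096 to 8238 in LNA29 livers, with a median of 5810. The saline livers spread 5.03-fold from lowest to highest and the LNA29 livers 2.66-fold. The groups overlapped, with 4 saline livers above the highest LNA29 liver and 4 LNA29 livers below the lowest saline liver, saline 51. The means were 16585 ± 9841 and 5602 ± 1979 (SD, n = 6 each), which is 2.96-fold lower in LNA29 livers. The log2 fold change was -1.43 with a 95% interval from -2.15 to -0.71 (exact permutation p = 0.0108, limma adjusted p = 0.138). Over all genes tested, 401 genes (3.21%) had a log2 fold change at or below that of Scd1, and Scd1 was number 53 by limma p.

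Scd1 had between 190 and 3240 reads per liver. The highest value came from saline 49, the liver with the strongest trend along transcript length. Without it the log2 fold change of Scd1 was -1.19 (exact permutation p = 0.0152), and over the 12 fits without 1 liver each it was between -1.66 and -1.19 with exact permutation p between 0.00433 and 0.0238. With limma array weights, which weight the livers unequally, the log2 fold change of Scd1 was -0.98, nearer to 0 than without any single liver. When the length trend of each liver was a covariate in limma, the log2 fold change was -1.52 and the adjusted p 0.00322. This alternative was added after the data were seen, and the trend was computed from the same values that were tested. Scd1 was then among 217 genes called, against 20 genes called without the covariate. Of the 100-base windows of the Scd1 transcript, 2.66% also occurred in other genes (Scd2, Scd3, Scd4 and a further annotated locus). Only identical windows were counted, and whether reads of Scd1 were split between copies was not tested. Scd3 and Scd4 were listed at 1 in all 12 livers.

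Scd2, an isoform best known from brain, was read little in liver. Its values ran from 1 to 200 in saline livers with a median of 68.5 and from 1 to 68.5 in LNA29 livers with a median of 15.7. Saline livers had 0 to 20 reads of Scd2 and LNA29 livers 0 to 5, with 1 saline and 2 LNA29 livers without a read, so the groups overlapped at the bottom of the scale. The log2 fold change was -1.86 with a 95% interval from -4.21 to 0.49 (exact permutation p = 0.180). In all, 42 reads in saline livers and 10 in LNA29 livers came from Scd2, or 5.32 and 1.60 per 10000000 reads. Saline 49 gave 20 of the 42, and without it the saline level was 3.11 per 10000000. Of the 100-base windows of the Scd2 transcript, 0.90% also occurred in other genes, 48 of them in Scd1, which had 190 to 3240 reads per liver. Whether reads of Scd1 were counted for Scd2 was not tested. Without saline 47, the liver at 0 reads, the log2 fold change was -2.77 (exact permutation p = 0.0238). The reads were few, the 95% interval included 0, and no difference in Scd2 between the groups was established.

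Fads1 and Fads2 encode the desaturases of the pathway to long polyunsaturated acids, Fads2 for its entry step and Fads1 for a later step. Fads1 was between 5947 and 10453 in saline livers with a median of 7587, and 4357 to 7226 in LNA29 livers with a median of 6111. Of the saline livers 4 lay above the highest LNA29 liver, and of the LNA29 livers 3 lay below the lowest saline liver. The means were 7799 ± 1720 and 6029 ± 1088 (SD, n = 6 each), and the difference on the log2 scale was -0.36 with a 95% interval from -0.71 to -0.02. This difference missed the threshold of the permutation test (exact p = 0.0606) and that of the adjusted limma test (adjusted p = 0.608). The exact permutation p of Fads1 was under 0.05 in 3 of the 12 fits that left out a liver, 0.0346 without saline 45, 0.0325 without saline 47 and 0.0455 without LNA29 48. In the remaining fits it was at most 0.123, and with all 12 livers it was 0.0952 with a common median and 0.113 with TMM scaling.

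Fads2 was between 3579 and 6469 in saline livers with a median of 5666 and 3283 to 6073 in LNA29 livers with a median of 4564. The ranges covered nearly the same span, and the log2 fold change of -0.27 had a 95% interval from -0.66 to 0.12 (exact permutation p = 0.208). The log2 ratio of Fads1 to Fads2 within a liver was 0.52 ± 0.22 in saline and 0.43 ± 0.33 in LNA29 livers (SD, n = 6 each), a difference of -0.10 (exact permutation p = 0.558, adjusted p = 0.698 over the 5 ratios tested). Fads1 and Fads2 lie on chromosome 19, as do Fads3, Scd1, Scd2 and Elovl3.

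Fads3, which acts on sphingoid bases, was at the edge of detection. Its values were between 31.7 and 111 in saline livers with a median of 60.7 (2 to 11 reads) and 1 to 68.5 in LNA29 livers with a median of 39.3 (0 to 5 reads). The groups overlapped, and 2 LNA29 livers had no read of Fads3. Summed over livers there were 35 reads in saline and 13 in LNA29 livers, 4.44 and 2.09 per 10000000 reads. The log2 fold change of -1.85 had a 95% interval from -3.75 to 0.05 (exact permutation p = 0.108). Of the 12 fits that left out a liver, 1 had an exact permutation p under 0.05, that without LNA29 54 (-2.26, exact permutation p = 0.0390). The highest exact permutation p of these fits was 0.227. For Scd2 and Fads3 the size of the fold change is set in part by the 1 that stands for a liver without reads.

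**Figure D2:**
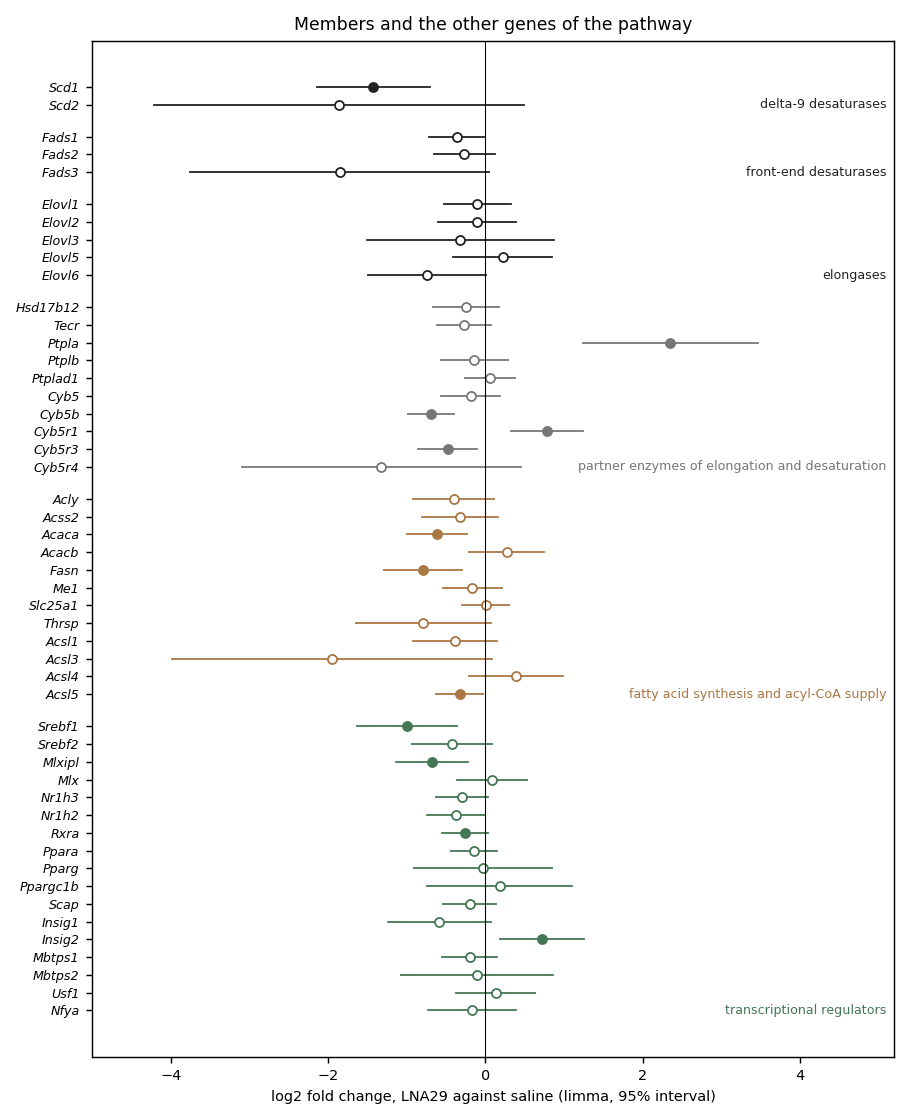
Limma log2 fold change (LNA29 against saline) with its 95% interval for the members and for the tested genes of 3 further lists, partner enzymes, fatty acid synthesis and regulators. Filled points have an exact permutation p under 0.05, which holds for Scd1 alone among the 10 members, and the widest intervals belong to genes with few reads such as Scd2 and Fads3.

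Elovl6 encodes the elongase that makes stearate from palmitate, the step before Scd1 in oleic acid synthesis. It was between 439 and 1140 in saline livers with a median of 706 and 132 to 738 in LNA29 livers with a median of 507. Of the saline livers 3 lay above the highest LNA29 liver and 2 LNA29 livers lay below the lowest saline liver. The lowest value, in LNA29 48, stood for 7 reads. The means were 723 ± 270 and 462 ± 214 (SD, n = 6 each), and the log2 fold change was -0.75 with a 95% interval from -1.50 to 0.0018 (exact permutation p = 0.106, limma adjusted p = 0.631). With the length trend as covariate, an alternative added after the data were seen, the log2 fold change of Elovl6 was -0.83, with an unadjusted limma p of 0.00540. That trend was computed from the same values that were tested, and 217 of all genes had an adjusted p under 0.05 with it, against 20 without it.

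Elovl5, which lengthens polyunsaturated acids at an early step, was the 1 member with a higher mean log2 value in LNA29 livers. It was between 17316 and 43143 in saline livers with a median of 25803 and 16698 to 67293 in LNA29 livers with a median of 26582. The medians nearly coincided, and the difference in means lay with LNA29 46 (67293) and LNA29 44 (46263), the 2 livers above every saline liver. The log2 fold change was 0.22 with a 95% interval from -0.41 to 0.85 (exact permutation p = 0.567), and it was -0.01 without LNA29 46.

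Elovl2, which lengthens polyunsaturated acids on the way to docosahexaenoic acid, was between 5706 and 13830 in saline livers and 4509 to 11188 in LNA29 livers, with medians of 8983 and 8369. The ranges overlapped almost entirely. The log2 fold change was -0.11 with a 95% interval from -0.61 to 0.39 (exact permutation p = 0.699), and its sign turned without saline 49 (0.03) or without LNA29 52 (0.05).

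Elovl1, the elongase of saturated very long chains, was between 750 and 2088 in saline livers and 988 to 1452 in LNA29 livers, with medians of 1281 and 1175. Both the lowest and the highest of all 12 values were saline livers. The log2 fold change was -0.10 with a 95% interval from -0.53 to 0.32 (exact permutation p = 0.641), and it was 0.04 without saline 47.

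Elovl3, an elongase of saturated and monounsaturated very long chains, was between 172 and 360 in saline livers with a median of 251 and 18.9 to 425 in LNA29 livers with a median of 298. The lowest value was a single read in LNA29 48, and the other 5 LNA29 livers lay among or above the saline livers. The mean was slightly higher in LNA29 livers (274 ± 139 against 256 ± 62.2, SD, n = 6 each), while the log2 fold change was -0.32 with a 95% interval from -1.50 to 0.87 (exact permutation p = 0.948). Without LNA29 48 the log2 fold change of Elovl3 was 0.35 (exact permutation p = 0.110).

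Ratios between members within a liver, which hardly depend on how a library was scaled, gave 1 difference with an unadjusted p under 0.05. The log2 ratio of Elovl6 to Elovl5 ranged from -6.16 to -4.77 in saline and from -6.97 to -5.33 in LNA29 livers. The ranges overlapped, with a difference of -0.97 ± 0.36 (standard error) between LNA29 and saline livers and means of -5.25 ± 0.51 and -6.21 ± 0.71 (SD, n = 6 each; exact permutation p = 0.0303, adjusted p = 0.152 over the 5 ratios). The exact permutation p was above 0.05 when 43, saline 49, LNA29 46, LNA29 48 or LNA29 54 was left out, at most 0.0541, and the difference was between -1.15 and -0.81. The ratio of Scd1 to Elovl6, the enzymes that follow each other in oleic acid synthesis, had a difference of -0.68 (standard error 0.38, exact permutation p = 0.108, adjusted p = 0.271). The ratio of Elovl2 to Elovl5 had a difference of -0.33 (exact permutation p = 0.262, adjusted p = 0.437) and that of Scd1 to Scd2 a difference of 0.44 (exact permutation p = 0.768, the same when adjusted).

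Levels of different genes were compared per kilobase of the longest protein-coding transcript. In saline livers the order of the mean levels per kilobase was Elovl5 (9748), Scd1 (3432), Elovl2 (2321), Fads1 (2254), Fads2 (1724), Elovl1 (733), Elovl3 (136), Elovl6 (121), Fads3 (18.05) and Scd2 (14.8). Elovl5 was above Scd1 in 6 of 6 saline livers, Elovl1 was above Elovl3 in 6 of 6, and Fads1 was above Fads2 in 6 of 6. Elovl2 was above Fads1 in only 2 of 6, Elovl3 above Elovl6 in 4 of 6 and Fads3 above Scd2 in 4 of 6, so those neighbours were not separated. In LNA29 livers Scd1 was number 5 in the order (1159 per kilobase), behind Elovl5 (12235), Elovl2 (2162), Fads1 (1742) and Fads2 (1443), and Fads2 was above Scd1 in 3 of 6 LNA29 livers. The order of the 5 lowest members, from Elovl1 to Scd2, was the same in both groups. Scd1 made up 16.2% ± 7.2 of the summed level per kilobase of the 10 members in saline livers and 6.43% ± 2.73 in LNA29 livers, and Elovl5 made up 47.1% ± 8.2 and 59.4% ± 9.3 (SD, n = 6 each).

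**Figure D3:**
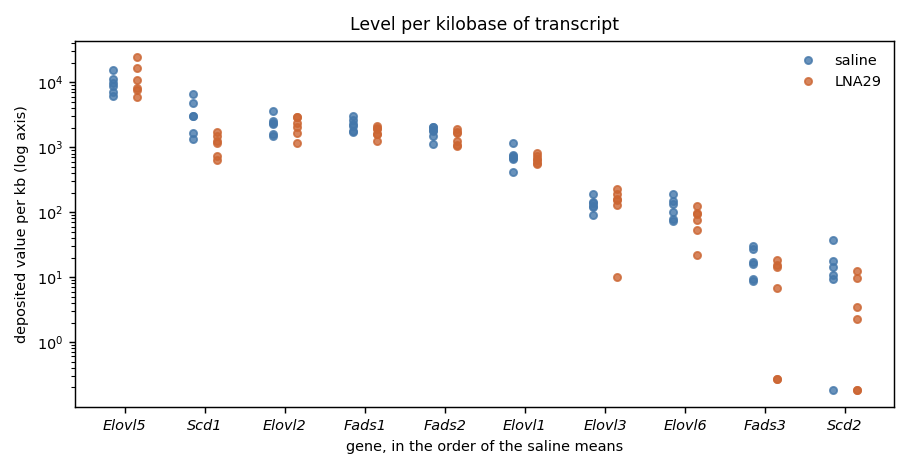
Deposited value per kilobase of transcript for each member in each liver, on a log axis, in the order of the saline means. Scd1 is number 2 in saline livers and number 5 in LNA29 livers, and Elovl5 is the highest member in both groups.

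Whether members varied together from liver to liver within the groups was tested for 5 pairs, and none of them passed the adjusted threshold. Of the 5 pairs tested over the 12 livers as deviations from the group mean, Scd1 with Elovl6 had r = 0.61 (permutation p = 0.0348, adjusted p = 0.0869) and rho = 0.72 (permutation p = 0.0107, adjusted p = 0.0534). It was 0.54 within the saline and 0.82 within the LNA29 livers, and 0.75 without saline 49 and saline 51, the livers farthest from the median of Scd1. Fads1 with Fads2 had r = 0.64 (permutation p = 0.0279, adjusted p = 0.0869) and rho = 0.60 (permutation p = 0.0430, adjusted p = 0.108), with 0.76 within saline and 0.53 within LNA29 livers, and 0.54 without saline 43 and LNA29 50. Leaving out a liver put the permutation p of Pearson's r above 0.05 in 6 of 12 fits for Scd1 with Elovl6 and in 3 of 12 for Fads1 with Fads2. Scd1 with Fasn, the fatty acid synthase, had r = 0.29 (permutation p = 0.350, adjusted p = 0.438) and rho = 0.30 (permutation p = 0.344, adjusted p = 0.430). Its r was 0.06 within saline and 0.74 within LNA29 livers, and 0.74 without saline 49 and saline 51. Scd1 with Srebf1, the gene of SREBP-1, had r = 0.31 (permutation p = 0.322, adjusted p = 0.438) and rho = 0.36 (permutation p = 0.247, adjusted p = 0.411), with 0.56 within saline, -0.16 within LNA29 livers and 0.34 without saline 49 and saline 51. Elovl3 with the clock output gene Dbp had r = -0.05 (permutation p = 0.867, adjusted p = 0.867) and rho = -0.24 (permutation p = 0.459, adjusted p = 0.459), with -0.53 within saline, 0.10 within LNA29 livers and -0.38 without LNA29 44 and LNA29 48.

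Some livers were the highest or lowest of their group in several members at once, and their length trends are given beside them. Saline 49 (correlation with transcript length 0.51) held the highest saline value of 5 members, Scd1, Scd2, Elovl2, Elovl3 and Elovl6, and the lowest of Elovl1, the member with the shortest transcript. LNA29 44 (0.29) held the highest LNA29 value of 4 members, Scd1, Elovl2, Elovl3 and Elovl6, and again the lowest of Elovl1. Elovl3, with a transcript nearly as short as that of Elovl1 (1.88 kb against 1.81 kb), was thus the highest of its group in both livers. Saline 47 (-0.35) held the lowest saline value of 5 members, Scd2, Fads1, Fads2, Elovl5 and Elovl6, and the highest of Elovl1. LNA29 48 (-0.24) was the lowest LNA29 liver for Elovl3, Elovl5 and Elovl6 and the highest for Fads1. Saline 43 (0.28) and saline 53 (-0.28) had trends of similar size and were the highest in 2 and 0 members and the lowest in 1 each. The part of the length trend in the spread of each member was not tested beyond the covariate fits.

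**Figure D4:**
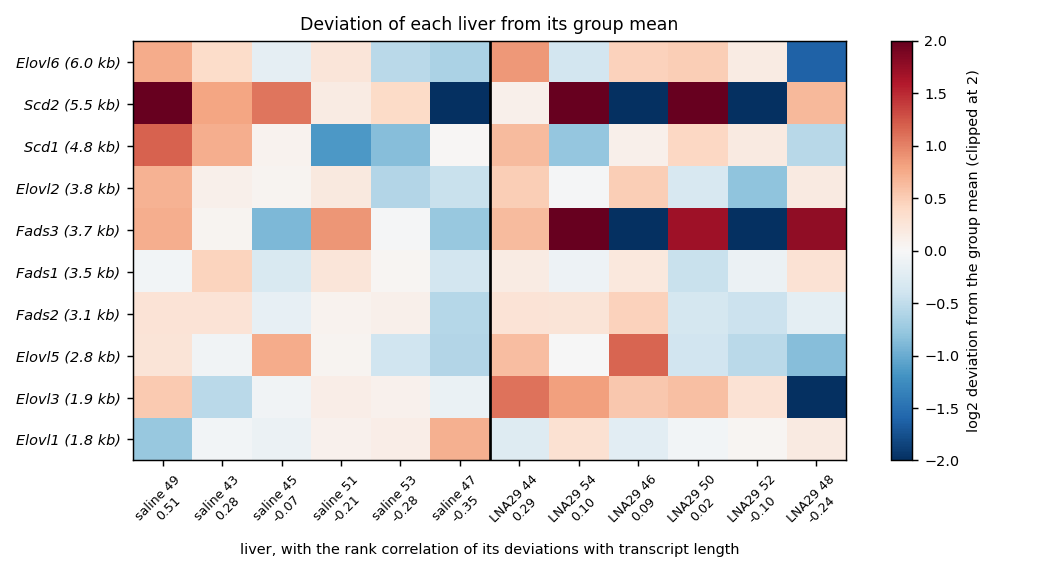
Deviation of each member in each liver from its group mean on the log2(value + 1) scale, with members ordered by transcript length and livers ordered within each group by the correlation of their deviations with transcript length. Saline 49 and LNA29 44, first in their groups, are high in Scd1 and Elovl6 and low in Elovl1, and saline 47, with the lowest correlation, is the reverse for Elovl6 and Elovl1. Elovl3, nearly as short as Elovl1, is high in saline 49 and LNA29 44.

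Genes of the same enzyme families outside the 10 members were read little or had no permutation p under 0.05. Scd3, Scd4 and Elovl4 were listed at 1 in all 12 livers. Elovl7, Fads6, Degs1 and Degs2, the 4 tested genes, had log2 fold changes of 1.11, -0.09, -0.02 and -0.95 (exact permutation p = 0.160, 0.760, 0.887 and 0.398).

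Among the partner enzymes, 10 of 12 were tested, and 2 with a permutation p under 0.05 were lower and 2 were higher in LNA29 livers, calls made for 6.34% and 2.15% of all genes tested. The median log2 fold change was -0.22 over the 10. Cytochrome b5 and its reductases pass electrons to the desaturases, and the HACD dehydratases catalyse a later step of the elongation cycle that the Elovl enzymes open. Ptpla (also called Hacd1), known from muscle, was between 10 and 90.9 in saline livers with a median of 70.8 and 123 to 358 in LNA29 livers with a median of 277. All LNA29 livers lay above all saline livers, on between 1 and 23 reads, which gave a log2 fold change of 2.35 ± 0.53 (standard error) and the smallest exact permutation p possible, 0.00216 (limma adjusted p = 0.118). Cyb5r1 was also higher in every LNA29 liver than in any saline liver, between 534 and 1113 against between 265 and 492, with a log2 fold change of 0.78 (SE 0.22, exact permutation p = 0.00216, limma adjusted p = 0.223).

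Cyb5b, the outer mitochondrial cytochrome b5, was between 3804 and 6391 in saline livers and 2732 to 3178 in LNA29 livers. The groups did not overlap, with a log2 fold change of -0.69 (SE 0.14, exact permutation p = 0.00216, limma adjusted p = 0.0681). Cyb5r3, the main microsomal reductase, was 47478 ± 10226 in saline and 33845 ± 6412 in LNA29 livers (SD, n = 6 each), and its log2 fold change was -0.48 (exact permutation p = 0.0260). Its exact permutation p was under 0.05 in 9 of the 12 fits and was at most 0.0519 without saline 47, saline 51 or saline 53, and it was 0.0693 with a common median and 0.0584 with TMM scaling. Cyb5 (also called Cyb5a), the microsomal cytochrome b5 itself, showed a log2 fold change of -0.19 (exact permutation p = 0.348). None of these 5 genes held TGGTGCT in its 3′ UTR, but those searched were only 93 bases long for Ptpla and 287 for Cyb5. The 3′ UTRs of Cyb5r1, Cyb5r3 and Cyb5b measured 661, 1484 and 3803 bases.

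For the lists that follow, the shares of all genes tested with a permutation p under 0.05 were 6.34% lower and 2.15% higher. The median log2 fold change of all genes tested was -0.09. Of the genes of fatty acid synthesis and acyl-CoA supply, 12 of 13 were tested, 3 with a permutation p under 0.05 were lower and 0 were higher, and the median log2 fold change was -0.36. They were Acaca, the acetyl-CoA carboxylase of the cytosol (-0.61, exact permutation p = 0.0108), Fasn (-0.79, exact permutation p = 0.0173) and Acsl5, an acyl-CoA synthetase (-0.32, exact permutation p = 0.0368). Acaca and Fasn kept a p under 0.05 in all 12 fits without a liver and Acsl5 in 5 of them. Of 17 transcriptional regulators, 3 were lower and 1 was higher, with a median of -0.20. Srebf1 was -0.99 (exact permutation p = 0.0238), Mlxipl, the gene of ChREBP, -0.68 (exact permutation p = 0.0281) and Rxra, the partner of LXR and PPAR receptors, -0.26 (exact permutation p = 0.0498). Insig2, which retains SREBP in the endoplasmic reticulum, was 0.72 (exact permutation p = 0.0433). Srebf1 kept its call in all 12 fits, while Mlxipl lost it without saline 49 (exact permutation p = 0.0519) or LNA29 46, and Rxra and Insig2 kept it in only 2 and 4 fits. Rxra also lost it with a common median (exact permutation p = 0.190) and with TMM scaling (exact permutation p = 0.167).

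Further along the pathway, peroxisomal chain shortening forms docosahexaenoic acid from its longer precursor, and its tested genes had a median log2 fold change of -0.04. Abcd2, a transporter of very long chains into peroxisomes, was lower (-0.57, exact permutation p = 0.0346, 0.0563 without saline 49 and 0.0541 with TMM scaling). Of 6 tested genes that load fatty acids into phospholipids, 1 was lower, Mboat7, which places arachidonic acid into phosphatidylinositol (-0.40, exact permutation p = 0.0346, and 0.0606 without saline 49). Of 15 clock genes, which are listed because Elovl3 is known to cycle through the day, 3 were lower (Nr1d1, Dbp and Tef) and 1 was higher (Npas2), with a median of -0.34. Among all genes tested, 6.34% were lower and 2.15% higher with a permutation p under 0.05, and the median was -0.09. Tef kept a permutation p under 0.05 in 3 of 12 fits without a liver and lost it with a common median (exact permutation p = 0.123) and TMM scaling (exact permutation p = 0.115). Dbp was the 1 gene of these lists with a limma adjusted p under 0.05 (0.0468), on between 3 and 23 reads in saline livers and 1 or 2 in LNA29 livers. Of the 18 genes of the pathway and clock lists with a permutation p under 0.05, 10 kept a permutation p under 0.05 in all 12 fits and 13 had one without saline 49.

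Marker lists of other liver cell types were set beside the members because Scd1, Scd2 and several elongases are also expressed outside hepatocytes. The summed level of 7 adipocyte markers was between 458 and 2335 in saline livers (median 834) and 1219 to 2775 in LNA29 livers (median 1554), with Lep at 1 in every liver and none of the 4 tested markers under a permutation p of 0.05. Those 4 had a median log2 fold change of 0.52, but Plin1 (1.04) and Cfd (-0.44) had a median value of 1, no reads, in both groups. Cidec (0.42, exact permutation p = 0.725) and Fabp4 (0.62, exact permutation p = 0.225) were read in every liver. The sums of endothelial markers ran from 5984 to 6570 in saline and from 5036 to 6356 in LNA29 livers, with 1 of 7 lower (Stab1, exact permutation p = 0.0108, but 0.0866 with a common median and 0.0671 with TMM scaling). The sums of stellate markers ran from 14280 to 22632 and from 15126 to 18960 (1 of 7 lower, Hgf, with 0 to 3 reads in saline and 0 or 1 in LNA29 livers), and those of macrophage markers from 7562 to 11020 and from 6304 to 15123 (1 of 7 higher, Marco, whose call was lost in 4 of 12 fits, with an exact permutation p of 0.0649 without saline 49). The stellate sums were mostly Ecm1, with means of 15772 in saline and 14358 in LNA29 livers. Of 7 hepatocyte markers 1 was lower, Apob (exact permutation p = 0.0476), which kept its call in 2 of 12 fits and lost it with a common median (exact permutation p = 0.193) and TMM scaling (exact permutation p = 0.149). A permutation p under 0.05 went with a lower level in 6.34% and a higher level in 2.15% of all genes tested. Of 6 tested bile duct and 6 tested blood markers none had a permutation p under 0.05. The part of these cell types in the values of the members was not tested.

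The genes whose profile over the 12 livers was most like that of Scd1, by the root mean square distance of log2 deviations from each gene's mean among 8990 genes with a mean of at least 100, were Csf1 (0.48), Gbp6 (0.49), Tsc22d1 (0.50), Slc36a1 (0.53) and Rcan2 (0.54), where the root mean square of Scd1 itself was 0.98. The difference between the groups enters this distance, and all of these genes were lower in LNA29 livers (log2 fold changes from -1.42 to -0.79). Csf1 and Gbp6 had only 3 reads in their lowest liver. For Elovl3 (1.11) the closest genes were Gdf10 (0.37), Cpsf4l (0.45), Tcf4 (0.46), Hiat1 (0.48) and 4933411K20Rik (0.48), each with only 1 or 2 reads in its lowest liver.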

How the data were processed

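Polyadenylated RNA of 6 saline and 6 LNA29 livers was sequenced by the authors as single reads of 100 bases, aligned with MapSplice2 and quantified per gene with RSEM. Per the labels the build was mm9, and versions and the gene annotation are not given in the sources used here. The authors deposited signal values, that is RSEM estimates scaled by each library's upper quartile over detected genes, with undetected genes at 1. The deposited table also holds the authors' means, a fold change given as a signed score, and p-values of a one-tailed test. These were not used, nor were 3 unnamed columns. Between 92.0% and 93.6% of values came to a whole number of reads (tolerance 0.02). The study treated its mice in 2 sets, and which set or sets gave the sequenced livers is not given in the sources used here. No set entered the fits. The p-values set the group difference against the spread between these livers, in which a difference between sets could not be separated.

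The groups were compared on log2(value + 1) with limma 3.58.1 (R 4.3.3) with a trend over 12486 genes (a mean of 10 or more, Benjamini-Hochberg adjustment), and with two-sided exact permutation tests over 924 divisions, whose smallest p is 0.00216. Correlations used 100000 permutations. The limma fit was tested on simulated data. The members, lists and tests were chosen with earlier results of these data known. Named are all 10 members and, from the lists, genes with a permutation p or a limma adjusted p under 0.05, and a few others were named after their values were seen. A result of the lists is not reported here. Transcript lengths, 3′ UTRs and shared 100-base windows came from GENCODE M21 (GRCm38), another build than that of the authors, with no conversion of coordinates. Pseudocounts, filters, scalings, array weights and the livers left out were varied. Python 3.11.15, numpy 2.4.6, pandas 2.3.3 and scipy 1.17.1 were used.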

Additional observations from a re-analysis of the deposited data

Results flagged for a closer look

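Among the 20 groups of 6 livers formed by the 10 members, 2 held a liver far from the others by Dixon's criterion, where chance gives 1. Scd2 in saline 47 had a log2(value + 1) of 1, which is a liver without a read, while the other saline livers were between 5.69 and 7.65. Elovl3 in LNA29 48 had a log2(value + 1) of 4.31, a single read, while the other LNA29 livers were between 7.94 and 8.73.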

How the results depend on the processing

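No paired analysis was possible because the groups share no replicate numbers. Count tests on recovered reads were planned but not run, since whole reads could not be recovered in all 12 columns, and array weights have no permutation test. Scd1 had a permutation p under 0.05 and a negative fold change under every pseudocount, filter and scaling tried and without each liver, with log2 fold changes from -1.66 to -1.19, and it was -0.98 with array weights. The limma count of members was 0 under every alternative except the length covariate, added after the data were seen, where it was 1 (Scd1). Without a liver, the number of members under the permutation threshold was between 1 and 3 and the median log2 fold change between -0.47 and -0.30. The smallest adjusted limma p of a member was between 0.0831 (without saline 51) and 0.470 (no filter) apart from the length covariate.

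Signs turned for 4 members, a ratio and a correlation. Elovl3 was 0.063 with array weights, and without a liver it was between -0.533 and 0.351, Elovl1 between -0.256 and 0.039, Elovl2 between -0.225 and 0.053 and Elovl5 between -0.013 and 0.389. The log2 ratio of Scd1 to Scd2 was -0.12 with a pseudocount of 10 and between -0.13 and 1.34 without a liver. Without a liver, the difference was between -0.96 and -0.55 for Scd1 to Elovl6, between -0.53 and -0.19 for Elovl2 to Elovl5 and between -1.15 and -0.81 for Elovl6 to Elovl5. The correlation was between 0.53 and 0.79 for Scd1 with Elovl6, between 0.54 and 0.76 for Fads1 with Fads2 and between -0.545 and 0.035 for Elovl3 with Dbp. The cause of these changes was not tested. The limma count over all genes, 20, was 1 without saline 43, LNA29 50 or LNA29 54, 5 without a filter, 58 with array weights and 217 with the length covariate. At this depth Scd2 and Fads3, with at most 20 and 11 reads in a liver, cannot show a fold change with useful precision.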
